A study of Mus musculus with 23 samples.

Results

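The 10 genes described here encode protein phosphatase 2A (PP2A) and related serine/threonine phosphatases, and they were chosen by name as the reported targets of norcantharidin (NCTD), out of 56748 genes in the table of the series. They are the PP2A catalytic subunits Ppp2ca and Ppp2cb, the scaffold subunits Ppp2r1a and Ppp2r1b, the regulatory subunits Ppp2r2a, Ppp2r5a and Ppp2r5c, the PP1 catalytic subunits Ppp1ca and Ppp1cb, and Ppp5c, which encodes PP5. All 10 passed the filter on low counts in the intraperitoneal (IP) and in the intratumoral (IT) tumors, so every member was tested in every comparison. None of them passed an adjusted p below 0.05 in any comparison, where at most 1.37 percent of all genes did. Across the 23 tumors the highest level was 1.36 to 2.21 times the lowest for 8 members, 5.75 times for Ppp2cb and 54.2 times for Ppp1ca.

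RNA was sequenced from tumors grown under the skin of the flank of DBA/2J mice, 6 to 8 weeks old, from B16-F1 cells, a mouse melanoma line of C57BL/6 origin. In all groups the host was therefore of another strain than the cells, and a tumor library holds RNA of both. CONTROL_IP (saline), PTX_IP (pentoxifylline, PTX, 60 mg/kg), NCTD_IP (NCTD, 3 mg/kg) and MIX_IP (both drugs at those doses) each held 2 tumors. By the IT route and at the same doses, 4 tumors each came from CONTROL_IT (dimethyl sulfoxide), NCTD_IT and MIX_IT, and 3 from PTX_IT. The drugs were dissolved in saline for IP treatment and in dimethyl sulfoxide for IT treatment, so that the route, the vehicle and the labelled batch cannot be told apart.

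PP2A is a trimer in which a scaffold holds a catalytic subunit and one of many regulatory subunits, and the regulatory subunit largely sets where the enzyme acts and on which proteins. PP2A and PP1 remove most of the phosphate groups from serine and threonine in animal cells, and PP2A counters kinases such as AKT and those of the MAP kinase cascade that drive melanoma. NCTD is a demethylated analog of cantharidin, and compounds of this kind bind the metal-containing active site that PP2A, PP1 and PP5 share, so they act on the enzyme and not directly on its messenger RNA. The question for these libraries was whether the messenger RNA of the targets differed with treatment or route.

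The active site is where the family members are most alike, and the same stretch of 30 coding bases is shown for the 5 catalytic genes because NCTD binds there. Each line gives the coding strand 5′ to 3′ from the mouse genome GRCm39, and capitals mark bases that differ from Ppp2ca. The stretch codes for part of the conserved metal-binding signature of these enzymes.
Ppp2ca: ggagactatgtggacagaggatattactct
Ppp2cb: ggGgactatgtAgacagaggGtaCtactct
Ppp1ca: ggGgaTtatgtAgaTCgGggCAaGCaGtct
Ppp1cb: ggagaTtatgtggacagaggaAaGCaGtct
Ppp5c: ggCgaTtTtgtggacCgTggTtCCtTctcC
The stretches lie at chr11:52004094-52004123 (plus strand, exon 2 of Ppp2ca), chr8:34100830-34100859 (plus strand, exon 2 of Ppp2cb), chr19:4243104-4243133 (plus strand, exon 3 of Ppp1ca), chr5:32638117-32638146 (plus strand, exon 3 of Ppp1cb) and chr7:16741718-16741747 (minus strand, exon 7 of Ppp5c). Against Ppp2ca, 4 bases differed in Ppp2cb, 5 in Ppp1cb, 10 in Ppp5c and 11 in Ppp1ca. Some of these bases leave the amino acid unchanged. The stretches of Ppp2ca and Ppp2cb code for the same amino acids, and so do those of Ppp1ca and Ppp1cb. The counts of bases are therefore no measure of how the active sites differ. Over the whole coding sequence, Ppp2ca and Ppp2cb were identical at 81.7% of 927 aligned bases, Ppp2r1a and Ppp2r1b at 75.0%, Ppp1ca and Ppp1cb at 73.8%, Ppp2r5a and Ppp2r5c at 60.5%, and Ppp2ca and Ppp1ca at 52.3%.

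The libraries were made from the 3′ end of messenger RNA, where the paralogs differ much more. Of the 451 stretches of 50 bases in the last 500 bases of each member's transcript, 0 occurred in any other gene, so reads from this end can tell the 10 members apart. The end of Ppp1cc, the remaining PP1 catalytic gene and not a member, shared 397 of its 451 stretches with Ppp1ccb. Overlaps with other genes were taken from the gene spans of the deposited table, introns included. Genes on the opposite strand overlapped the last 500 bases of the span of 3 members. These were Sik2 with Ppp2r1b and Gm15614 with Ppp1cb over all 500 bases, and Rad9a with Ppp1ca over 225 bases. By the same measure, 19.9% of 21970 protein-coding genes had an overlap of any length. Relative to the end of the span, the main transcript in the annotation ended at -12798 bases in Ppp2r1b and -21910 in Ppp1cb, before these overlaps. In Ppp1ca it ended 5 bases beyond the span, so the overlap with Rad9a lies at its end. The strand setting of the counting is not given in the sources used here, and overlap of exons was not examined. Whether reads of these partners were counted on the 3 members, or reads of the members were lost there, therefore cannot be told. The gene end of Ppp2cb in the deposited table lies 413 bases before the end of its main transcript in the annotation. Reads from the part beyond may not have been counted, and the stretches compared for Ppp2cb include that part.

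Reads counted on genes ranged from 2861578 to 6702374 per tumor, with a median of 4013068. The floor of 3 counts lay between 0.448 and 1.05 CPM (counts scaled to library size) and covers counting error only, since amplified reads are not independent molecules. All 8 melanoma markers were detected in every group, with summed levels of 15961 to 33048 CPM in the IT tumors and 27859 to 38094 CPM in the IP tumors. Xist, which is transcribed from the inactive X chromosome of female cells, was at 0 to 0.565 CPM in CONTROL_IT, 1.28 to 11.6 in PTX_IT, 5.17 to 13.6 in NCTD_IT and 0 in all tumors of MIX_IT. Xist thus differed between the IT groups compared, and the tests were repeated with its level in the model. All tumors of PTX_IT and NCTD_IT lay above all of CONTROL_IT in Xist, so its level and these treatments can hardly be told apart. For these groups, values with Xist in the model rest on tumors without a shared range of Xist.

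Treated and control tumors of a route were compared with edgeR's quasi-likelihood test, with Benjamini-Hochberg adjustment over all tested genes. In NCTD_IT against CONTROL_IT, 0 of the 10 members passed an adjusted p below 0.05, beside 1.37 percent of all 12480 genes. In the same comparison 0 members had an unadjusted p below 0.05, beside 21.6 percent of all genes, and DESeq2 called 0 members beside 10.6 percent. With edgeR 0 members were called in MIX_IT, PTX_IT, NCTD_IP, PTX_IP or MIX_IP against their controls, where the share of all genes called was 0 percent as well. An unadjusted p below 0.05 was found for 1 member in MIX_IT beside 13 percent of all genes, for 0 in PTX_IT beside 6.35 percent, for 1 in NCTD_IP beside 3.59 percent, for 0 in PTX_IP beside 5.3 percent and for 0 in MIX_IP beside 2.94 percent. The effect of NCTD averaged over the presence and absence of PTX in the IT tumors called 0 members and 0 percent of all genes, and DESeq2 called 0 members beside 2.04 percent of the genes to which it gave an adjusted p.

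Over all comparisons, 140 fold changes of members were tested, 0 had an adjusted p below 0.05 with edgeR, and the smallest adjusted p was 0.251. An unadjusted p below 0.05 was found 5 times, for Ppp2r1a and Ppp2r2a only. With DESeq2 and with each other alternative fit, 0 members were called as well. Of the 60 differences between a treatment and its own control, 51 had a 95% interval that lay inside a change of 2-fold either way. Without Ppp1ca and Ppp2cb, the members with the lowest counts, 47 of 48 did. The p-values measure the spread between these tumors, which the labels number separately. Fewer cells of a type and less RNA per cell cannot be told apart in these libraries.

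In NCTD_IT the median log2 fold change of the 10 members was -0.10 with 3 higher and 7 lower, beside a median of 0.03 over all genes. In MIX_IT the median was 0.00 with 5 higher and 5 lower, beside 0.01 over all genes. In PTX_IT it was 0.01 with 6 higher and 4 lower, and in NCTD_IP it was -0.04 with 4 higher and 6 lower, beside 0.02 and -0.01 over all genes.

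**Figure D1:**
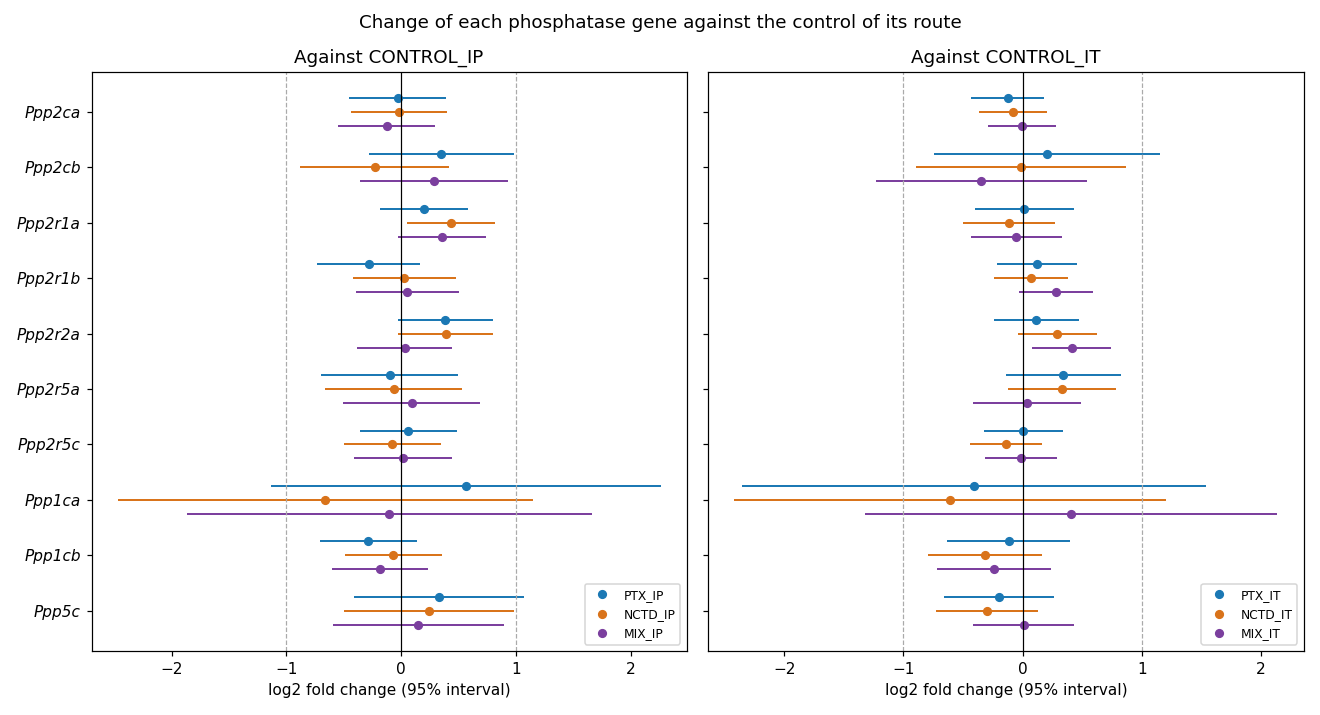
Log2 fold change of each of the 10 members (rows) against the control of its route with its 95% interval, one panel per route. Intervals are wide for Ppp1ca and for Ppp2cb in the IT tumors, and no member passed an adjusted p below 0.05.

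The 2 catalytic subunits of PP2A come first. Ppp2ca encodes the alpha isoform of the catalytic subunit and lies at chr11:51989508-52018605 on the plus strand. In CONTROL_IT it was at 400.4, 332, 386 and 375 CPM, and in NCTD_IT at 338, 354, 398 and 320.5 CPM. The tumors of MIX_IT were at 358, 345, 386 and 400.2 CPM and those of PTX_IT at 333, 329 and 364 CPM. All 4 IT groups overlapped, and the highest tumor of NCTD_IT lay close to the highest of CONTROL_IT. The log2 fold change of Ppp2ca was -0.08 in NCTD_IT (SE 0.13, 95% interval -0.36 to 0.20, edgeR adjusted p = 0.76) and -0.01 in MIX_IT (SE 0.13, adjusted p = 0.992). With the level of Xist in the model the value in NCTD_IT was 0.21, with an edgeR adjusted p of 0.911.

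In the IP tumors Ppp2ca was at 348 and 371 CPM in CONTROL_IP, 329.9 and 373 in PTX_IP, 376 and 332 in NCTD_IP and 294 and 359 in MIX_IP. The highest of the 23 tumors was only 1.36 times the lowest, and the coefficient of variation was 7.89%, the smallest of the 10 members. Its group means ran from 327 CPM in MIX_IP to 373 CPM in CONTROL_IT, and all 7 neighbouring pairs in that order overlapped. The IT groups differed from the IP groups by 0.05 on the log2 scale, averaged over the treatments (95% interval -0.11 to 0.21, edgeR adjusted p = 0.827).

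Ppp2cb, the beta isoform, lies at chr8:34089653-34109469 on the plus strand and was counted 37 to 184 times per tumor. It was at 14.6, 27.8, 23.9 and 20.6 CPM in CONTROL_IT, at 31.9, 12.9, 14.8 and 26.1 CPM in NCTD_IT and at 26.3, 11.7, 24.9 and 6.15 CPM in MIX_IT. NCTD_IT had 1 tumor above and 1 below the whole range of the controls, and tumor 24 of MIX_IT was the lowest of all 23. The log2 fold changes were -0.01 in NCTD_IT (SE 0.41, 95% interval -0.89 to 0.86) and -0.35 in MIX_IT (SE 0.41, 95% interval -1.22 to 0.53, edgeR adjusted p = 0.766). With the level of Xist in the model the value in NCTD_IT turned to 0.89 (edgeR adjusted p = 0.872), outside the interval given for the model without it. The interval in NCTD_IT without Xist spans fold changes from 0.541 to 1.81, and a change within it was not detectable with these tumors. The IP groups had means from 14.3 CPM in NCTD_IP to 21.4 CPM in PTX_IP, and PTX_IT had the highest mean of all groups, 25.1 ± 8.98 CPM (SD, n = 3).

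**Figure D2:**
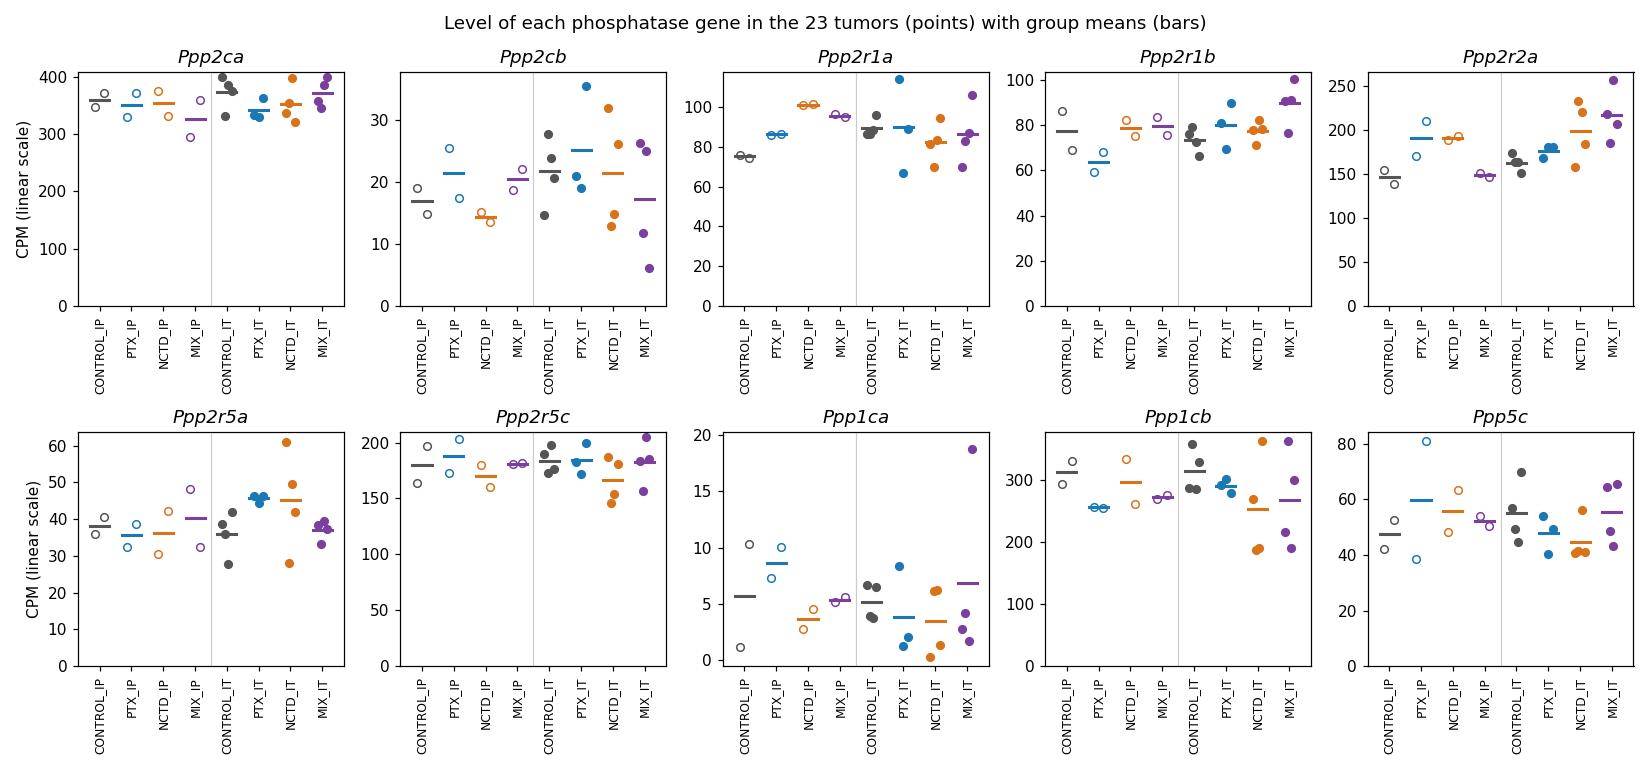
Level of each of the 10 members in CPM (linear axes) in every tumor by group, with a bar at the group mean. The groups overlap for most members, and Ppp1ca in tumor 24 of MIX_IT, at 18.8 CPM, stands far above the other tumors.

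The share of reads that the 2 isoforms took was compared too. It is a share of counted reads, and reads of Ppp2cb beyond its gene end in the deposited table may be missing. Ppp2ca took 96.5, 92.3, 94.2 and 94.8% of the reads of both genes in CONTROL_IT, 91.4, 96.5, 96.4 and 92.5% in NCTD_IT and 93.2, 96.7, 93.9 and 98.5% in MIX_IT. The group means of all 8 groups lay between 93.3 and 96.1%. With NCTD, averaged over the presence and absence of PTX, the share differed by 1.03 percentage points (2-sided exact permutation test, p = 0.403, adjusted p = 0.833 over 12 tests of shares).

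The scaffold subunits hold the trimer together, and Ppp2r1a encodes the alpha and Ppp2r1b the beta isoform. Ppp2r1a lies at chr17:21165573-21186178 on the plus strand. In CONTROL_IP it was at 75.9 and 74.6 CPM, in PTX_IP at 86.0 and 86.7, in NCTD_IP at 100.9 and 101.7 and in MIX_IP at 96.6 and 94.9 CPM. The 4 IP groups did not overlap, and both tumors of each treated group lay above both controls. With 2 tumors per group such a separation is easily reached, and the share of all genes that show it was not counted. NCTD_IP exceeded CONTROL_IP by 0.43 on the log2 scale (SE 0.17, 95% interval 0.06 to 0.81), and edgeR's adjusted p was 0.999. Ppp2r1a was the member with an unadjusted p below 0.05 in this comparison.

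NCTD averaged over the presence and absence of PTX gave a log2 difference of 0.30 in the IP tumors (SE 0.12, edgeR adjusted p = 1), and no other member had an unadjusted p below 0.05, beside 2.84 percent of all genes. The IT tumors showed no such order. Ppp2r1a was at 86.6, 86.4, 88.5 and 96.0 CPM in CONTROL_IT and at 81.7, 69.95, 83.5 and 94.7 CPM in NCTD_IT. MIX_IT was at 69.6, 83.0, 86.8 and 105.9 CPM and PTX_IT at 114, 66.8 and 89.2 CPM. All 4 IT groups overlapped, and the 2 extremes of all 23 tumors were both in PTX_IT. The log2 fold change in NCTD_IT was -0.12 (SE 0.18), which differed from that in NCTD_IP by -0.54 (SE 0.27, 95% interval -1.10 to 0.02, edgeR adjusted p = 0.479). That comparison of the NCTD effect between routes called 0 members and 0 percent of all genes, and 0 members had an unadjusted p below 0.05 beside 10.8 percent.

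Ppp2r1b lies at chr9:50756601-50805529 on the plus strand. It was at 76.3, 79.4, 72.7 and 66.4 CPM in CONTROL_IT, 77.9, 71.1, 82.4 and 78.2 in NCTD_IT and 90.6, 76.6, 91.2 and 100.4 in MIX_IT. In MIX_IT 3 of 4 tumors lay above all 4 controls, and the log2 fold change was 0.28 (SE 0.14, 95% interval -0.02 to 0.58, edgeR adjusted p = 0.417). In NCTD_IT it was 0.07 (SE 0.14), and 0.49 with the level of Xist in the model (edgeR adjusted p = 0.839). PTX_IP had the lowest mean of the groups, 63.6 CPM, and MIX_IT the highest, 89.7 CPM, and all 7 neighbouring pairs of groups overlapped.

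The scaffold pair was also set side by side within each tumor. Ppp2r1a took 53.2, 52.1, 54.9 and 59.1% of the reads of both genes in CONTROL_IT, 51.2, 49.6, 50.3 and 54.8% in NCTD_IT and 43.5, 52.0, 48.8 and 51.3% in MIX_IT. Every tumor of MIX_IT lay below every control, with means of 48.9 ± 3.88% (SD, n = 4) and 54.8 ± 3.09% (SD, n = 4). The difference was -5.93 percentage points, with a 2-sided exact permutation p = 0.0286, the smallest that 70 splits can give, and an adjusted p = 0.343 over the 12 tests of shares. NCTD_IT and CONTROL_IT overlapped and differed by -3.36 percentage points (exact permutation p = 0.114, adjusted p = 0.457). In the IP tumors the direction was the opposite, with means of 49.4% in CONTROL_IP, 57.6% in PTX_IP, 56.3% in NCTD_IP and 54.6% in MIX_IP. With 2 tumors per IP group no share was tested there.

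**Figure D3:**
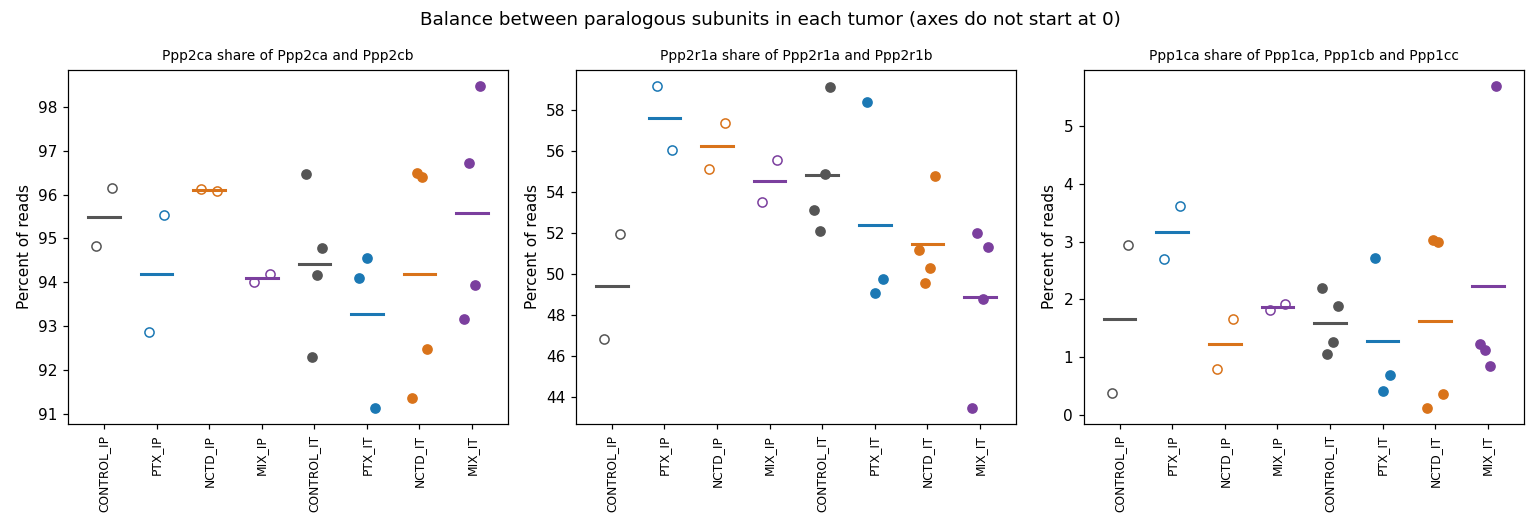
Share of reads in percent that Ppp2ca, Ppp2r1a and Ppp1ca took within their sets of paralogs, in every tumor by group. The share of Ppp2r1a in MIX_IT, 43.5 to 52.0%, lies below that in CONTROL_IT, 52.1 to 59.1%, and the IP treated groups lie above CONTROL_IP.

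The regulatory subunits direct PP2A to its substrates. Ppp2r2a encodes a subunit of the B55 family, which acts in the exit from mitosis and on AKT, and lies at chr14:67251505-67309893 on the minus strand. In CONTROL_IT it was at 174, 163, 163 and 151 CPM, and in PTX_IT at 169, 181 and 180.5 CPM. In NCTD_IT it was at 158, 234, 221 and 185 CPM, and in MIX_IT at 219, 186, 257 and 207 CPM. All 4 tumors of MIX_IT and 3 of 4 of NCTD_IT lay above every control. The share of all genes whose groups lie apart like this was not counted, here or for any other member or partner.

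The log2 fold change of Ppp2r2a was 0.41 in MIX_IT (SE 0.15, 95% interval 0.09 to 0.74, edgeR adjusted p = 0.271) and 0.29 in NCTD_IT (SE 0.15, adjusted p = 0.282). NCTD averaged over the presence and absence of PTX gave 0.29 in the IT tumors (SE 0.11, 95% interval 0.05 to 0.53, edgeR adjusted p = 0.251). Ppp2r2a was the only member with an unadjusted p below 0.05 in these 2 comparisons, MIX_IT against CONTROL_IT and the averaged effect of NCTD, beside 13 and 14.5 percent of all genes. DESeq2 gave adjusted p-values of 0.197 for MIX_IT and 0.186 for the averaged effect.

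In the IP tumors Ppp2r2a was at 155 and 138 CPM in CONTROL_IP, 171 and 211 in PTX_IP, 189 and 193 in NCTD_IP and 151 and 146 in MIX_IP. Each drug alone lay above the controls, and the combination lay among them. The difference between MIX_IP and the sum of the effects of its drugs was -0.74 on the log2 scale (SE 0.25, 95% interval -1.31 to -0.16, edgeR adjusted p = 0.778), and it was the only member with an unadjusted p below 0.05 beside 6.39 percent of all genes. In the IT tumors the same difference was 0.01 (SE 0.23, adjusted p = 0.995). Group means ran from 146 CPM in CONTROL_IP to 217 CPM in MIX_IT, and 6 of 7 neighbouring pairs overlapped.

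Ppp2r5a and Ppp2r5c encode B56 subunits, which direct PP2A to proteins of growth signalling and of chromosome attachment in mitosis. Ppp2r5a lies at chr1:191084172-191135469 on the minus strand and was at 38.8, 35.9, 27.7 and 42.1 CPM in CONTROL_IT, 46.4, 44.3 and 46.4 in PTX_IT, 61.0, 28.1, 49.7 and 42.0 in NCTD_IT and 38.5, 33.2, 39.4 and 37.2 in MIX_IT. Each of the 3 tumors of PTX_IT lay above the controls, NCTD_IT lay partly above and partly among them, and MIX_IT lay among them. How many of all genes separate like PTX_IT here was not counted. The log2 fold changes were 0.34 in PTX_IT (SE 0.23), 0.33 in NCTD_IT (SE 0.21, edgeR adjusted p = 0.373) and 0.04 in MIX_IT (SE 0.21). With the level of Xist in the model they were 0.62 in PTX_IT and 0.66 in NCTD_IT, with edgeR adjusted p-values of 0.975 and 0.845. The combination differed from the sum of its drugs by -0.64 (SE 0.31, 95% interval -1.28 to 0.01, edgeR adjusted p = 0.449), in a comparison that called 0 members and 0.0401 percent of all genes, with 0 members and 11.3 percent of all genes at an unadjusted p below 0.05.

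Ppp2r5c lies at chr12:110413554-110549496 on the plus strand. It was at 189, 173, 197 and 176 CPM in CONTROL_IT, 187, 145, 154 and 181 in NCTD_IT and 183, 156, 205 and 186 in MIX_IT. The groups overlapped, with the log2 fold change at -0.14 in NCTD_IT (SE 0.14, 95% interval -0.44 to 0.16, edgeR adjusted p = 0.594) and -0.01 in MIX_IT. With the level of Xist in the model the value in NCTD_IT was 0.15 (edgeR adjusted p = 0.945). Over the 23 tumors it ranged from 145 to 205 CPM with a coefficient of variation of 8.85%, and its group means lay between 167 CPM in NCTD_IT and 188 CPM in PTX_IP.

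PP1, the other large source of serine/threonine phosphatase activity, has catalytic subunits made by Ppp1ca, Ppp1cb and Ppp1cc. Ppp1cb lies at chr5:32616187-32674777 on the plus strand and was at 288, 358, 286 and 329 CPM in CONTROL_IT. It was at 270.1, 188, 191 and 363 CPM in NCTD_IT, 216, 363, 191 and 301 CPM in MIX_IT and 291, 302 and 279 CPM in PTX_IT. NCTD_IT and MIX_IT each held 2 tumors far below the controls and 1 tumor above all of them. The means were 315 ± 34.7 CPM in CONTROL_IT, 253 ± 82.7 in NCTD_IT and 268 ± 79.1 in MIX_IT (SD, n = 4 each), and the log2 fold changes were -0.32 in NCTD_IT (SE 0.22, 95% interval -0.79 to 0.15, edgeR adjusted p = 0.425) and -0.24 in MIX_IT (SE 0.22, adjusted p = 0.69). With the level of Xist in the model the value in NCTD_IT was -0.68 (edgeR adjusted p = 0.845), and without tumor 20 of NCTD_IT it was -0.53 (adjusted p = 0.183).

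In the IP tumors Ppp1cb was at 294 and 331 CPM in CONTROL_IP, 257 and 255 in PTX_IP, 333 and 261 in NCTD_IP and 269 and 275 in MIX_IP. NCTD_IP overlapped its controls, while PTX_IP and MIX_IP lay below them. The log2 fold change was -0.29 in PTX_IP (SE 0.18, edgeR adjusted p = 0.914).

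The 4 IT tumors with the lowest Ppp1cb were tumors 18 and 19 of NCTD_IT and 21 and 23 of MIX_IT, at 188 to 216 CPM beside 270.1 to 363 CPM in the other 11. These were also the 4 IT tumors with the highest Ppp2r2a, 219 to 257 CPM beside 151 to 207 CPM. They had the 4 highest summed levels of 7 fibroblast markers, all detected, at 1279 to 8568 CPM beside 108 to 895 CPM in the other 11, with 108 to 368 CPM in CONTROL_IT. Their summed melanoma markers were at 15961 to 26771 CPM beside 23660 to 33048 CPM, and their endothelial markers at 61.0 to 188 CPM beside 31.6 to 95.2 CPM. In the 8 IP tumors fibroblast markers reached 1125 CPM, with Ppp1cb at 255 to 333 CPM. The part of the fibroblast content in the levels of Ppp1cb and Ppp2r2a was not tested. These tumors were picked out after their values were seen.

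Across all 23 tumors the log2 levels of Ppp2r2a and Ppp1cb ran against each other, with Pearson's r at -0.643 (permutation p = 0.00097, adjusted p = 0.0436 over the 45 pairs of members) and Spearman's rho at -0.433 (permutation p = 0.0399, adjusted p = 0.466). It was the 1 pair of members to pass an adjusted p below 0.05 by either coefficient, and 0 pairs passed by both (100000 permutations of the tumors). Without the 2 tumors farthest from the median of Ppp2r2a, r was -0.531. Within the 15 IT tumors r was -0.758 and rho -0.471, and within the 8 IP tumors r was -0.366 and rho -0.524. Without the 4 IT tumors with the lowest Ppp1cb, r was -0.0551 and rho 0.00526 in the remaining 19 tumors. Those 4, picked out after their values were seen, were also the IT tumors with the highest Ppp2r2a. Leaving out tumors at the extremes of both genes brings the coefficients towards 0 by the choice itself, so no conclusion is drawn from it. After removal of the group means, r over the 23 tumors was -0.724.

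**Figure D4:**
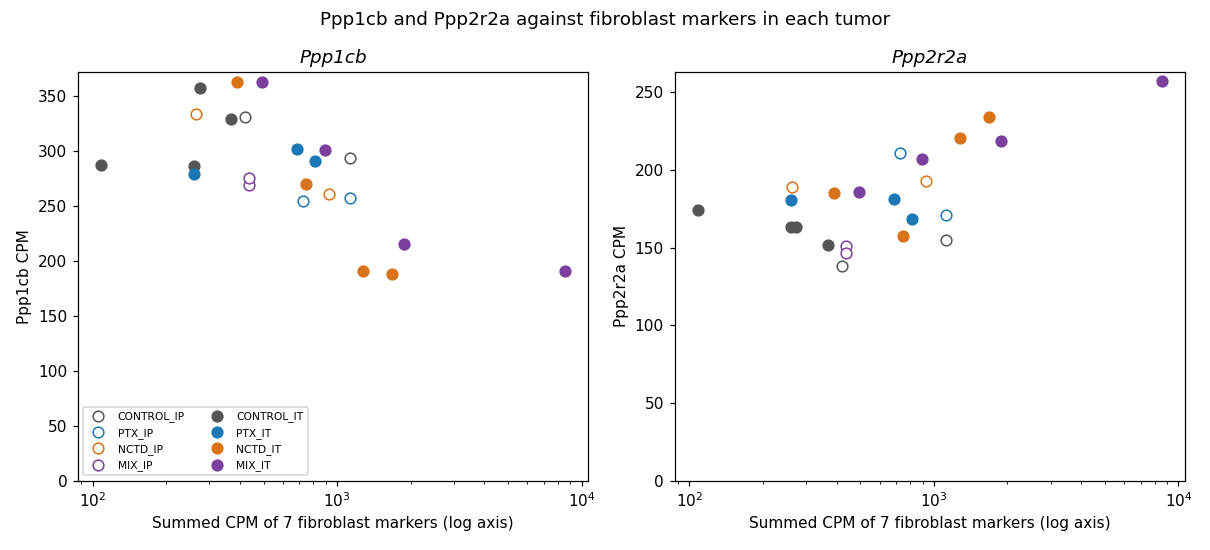
Ppp1cb (left) and Ppp2r2a (right) in CPM against the summed CPM of 7 fibroblast markers (log axis) in each tumor. The 4 IT tumors with the highest fibroblast markers, 1279 to 8568 CPM, have the lowest Ppp1cb and the highest Ppp2r2a of the 15 IT tumors.

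Ppp1ca lies at chr19:4242064-4245419 on the plus strand and was sparse, with 2 to 113 reads per tumor and a median of 19. It was at 6.68, 3.94, 3.77 and 6.49 CPM in CONTROL_IT, 0.347, 6.15, 6.21 and 1.33 in NCTD_IT and 2.78, 4.21, 1.69 and 18.8 in MIX_IT. Tumor 17 of NCTD_IT was below the floor with 2 reads, and tumor 24 of MIX_IT was far above every other tumor. The log2 fold changes were -0.61 in NCTD_IT (SE 0.85, 95% interval -2.41 to 1.19) and 0.41 in MIX_IT (SE 0.81, 95% interval -1.32 to 2.13, edgeR adjusted p = 0.872). These intervals leave changes of several-fold undetectable with these tumors. With the level of Xist in the model the value in NCTD_IT was -1.76 (edgeR adjusted p = 0.897). In the IP tumors it was at 1.16 and 10.3 CPM in CONTROL_IP, 7.31 and 10.0 in PTX_IP, 2.79 and 4.52 in NCTD_IP and 5.21 and 5.60 in MIX_IP, so the 2 controls spanned the treated groups. Its share of the reads of Ppp1ca, Ppp1cb and Ppp1cc was 1.60 ± 0.528% in CONTROL_IT, 1.63 ± 1.61% in NCTD_IT and 2.22 ± 2.32% in MIX_IT (SD, n = 4 each). Whether reads at the overlap with Rad9a are missing from this count cannot be told.

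Ppp5c encodes PP5, which works with the chaperone Hsp90 and also has the shared active site. It lies at chr7:16738565-16761849 on the minus strand. Its level was 57.0, 49.4, 44.5 and 69.7 CPM in CONTROL_IT, 40.7, 41.3, 56.2 and 41.0 in NCTD_IT and 64.3, 48.8, 43.3 and 65.7 in MIX_IT. In NCTD_IT 3 of 4 tumors lay below every control, while MIX_IT overlapped them. The log2 fold changes were -0.30 in NCTD_IT (SE 0.20, 95% interval -0.72 to 0.12, edgeR adjusted p = 0.391) and 0.01 in MIX_IT (SE 0.20). The 2 tumors of PTX_IP were the lowest and the highest of all 23, at 38.7 and 80.8 CPM.

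Averaged over the treatments, the IT groups were compared with the IP groups. This comparison called 0 of 10 members beside 0.739 percent of all 13395 genes, and 0 members had an unadjusted p below 0.05, beside 14.4 percent. The median log2 difference over the members was 0.02, with 5 higher and 5 lower. The smallest adjusted p was that of Ppp2r2a, with a difference of 0.16 (SE 0.09, 95% interval -0.02 to 0.34, edgeR adjusted p = 0.4). The test for any difference among the 4 IT groups called 0 members and 0.024 percent of all genes, and that among the 4 IP groups called 0 members and 0 percent, with 0 members in either at an unadjusted p below 0.05 beside 12.9 and 3.27 percent. The effects of PTX and of MIX by the 2 routes were compared as well, with 0 members and 0 percent of all genes called in each, and 0 members at an unadjusted p below 0.05 beside 5.23 and 7.44 percent.

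The genes whose level over the 23 tumors ran most like that of each catalytic gene were found by Spearman's rho among 13395 genes, as a description. For Ppp2ca they were Klhl13 (rho 0.85), Snrpe (0.81) and Cct5 (0.81), and for Ppp2cb they were Rab27a (0.88), Lmtk2 (0.83) and Tbx4 (0.83). For Ppp1ca they were Ppp1r14b (0.78), Agpat4 (0.74) and Hmga1 (0.73). For Ppp1cb they were Alg14 (0.82), Lix1l (0.81) and Phlpp1 (0.80), and for Ppp5c Mbd3 (0.77), Eif4g1 (0.77) and Pmf1 (0.75). No other member was among these genes.

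The partners of these enzymes were examined from a list of 71 other phosphatase genes, their regulatory subunits, assembly factors and inhibitors, of which 69 were in the table and 56 were tested. In NCTD_IT against CONTROL_IT edgeR called 0 of the 56, beside 1.37 percent of all genes, and 7 had an unadjusted p below 0.05 (2 higher and 5 lower) beside 21.6 percent of all genes. Their median log2 fold change was 0.06. None of the 6 other catalytic genes, the 9 other PP2A regulatory subunits or the 5 genes of PP2A assembly and methylation had an unadjusted p below 0.05.

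Of 7 tested inhibitors of PP2A, 5 were lower and 2 higher in NCTD_IT, with a median log2 fold change of -0.45, and 3 had an unadjusted p below 0.05, all lower, in a comparison with 21.6 percent of all genes below that level. Anp32a, which encodes an acidic inhibitor of PP2A, was at 38.8, 39.4, 30.9 and 40.1 CPM in CONTROL_IT, 19.4, 15.5, 14.8 and 32.2 in NCTD_IT and 23.3, 25.1, 24.9 and 29.9 in MIX_IT. In NCTD_IT 3 of 4 tumors and in MIX_IT all 4 tumors were below every control. How many of all genes separate in this way was not counted. The log2 fold change of Anp32a was -0.86 in NCTD_IT (SE 0.24, edgeR adjusted p = 0.0676, DESeq2 adjusted p = 0.0374) and -0.53 in MIX_IT (SE 0.24, edgeR adjusted p = 0.362).

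Arpp19, which encodes a mitotic inhibitor of the B55 form of PP2A, was at 409, 347, 350.03 and 329 CPM in CONTROL_IT and at 229, 255, 306 and 251 CPM in NCTD_IT, and the groups did not overlap. Its log2 fold change was -0.46 (SE 0.19, edgeR adjusted p = 0.171, DESeq2 adjusted p = 0.0495). Bod1, which encodes an inhibitor of the B56 form at chromosomes, was at 176, 135, 150.1 and 131 CPM in CONTROL_IT and at 100.4, 100.1, 127 and 106 CPM in NCTD_IT. These groups did not overlap either, and the log2 fold change was -0.45 (SE 0.15, edgeR adjusted p = 0.0931). The share of all genes whose groups separate in this way was not counted.

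Among 21 tested regulators of PP1, 4 had an unadjusted p below 0.05 in NCTD_IT, 2 in each direction, beside the 21.6 percent of all genes. Ppp1r10, which encodes a nuclear targeting subunit of PP1, was at 20.8, 21.9, 23.1 and 17.5 CPM in CONTROL_IT and at 42.5, 37.8, 30.3 and 39.6 CPM in NCTD_IT, so the groups did not overlap. Its log2 fold change was 0.85 (SE 0.21, edgeR adjusted p = 0.0549, DESeq2 adjusted p = 0.00682). Ppp1r15b, which encodes the constitutive subunit that directs PP1 to the translation factor eIF2 alpha, was at 134, 156, 137 and 119.7 CPM in CONTROL_IT and 268, 268, 219 and 184 CPM in NCTD_IT. These groups did not overlap, and the log2 fold change was 0.78 (SE 0.25, edgeR adjusted p = 0.0871, DESeq2 adjusted p = 0.000952). For Ppp1r10 and Ppp1r15b too, the share of all genes with such a separation was not counted.

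Ppp1r11, which encodes an inhibitor of PP1, was lower, at 30.3, 33.5, 40.5 and 35.9 CPM in CONTROL_IT and 14.4, 13.8, 25.2 and 23.4 CPM in NCTD_IT, and its log2 fold change was -0.88 (SE 0.23, edgeR adjusted p = 0.0576, DESeq2 adjusted p = 0.0264). Ppp1r14b, a further inhibitor of PP1, had a log2 fold change of -0.54 (edgeR adjusted p = 0.116). DESeq2 thus called 5 of the 56 partners in NCTD_IT, beside 10.6 percent of all genes, and with the level of Xist in edgeR's model 0 were called, beside 0 percent of all genes. The summed fibroblast markers of NCTD_IT, 390 to 1676 CPM, lay above those of CONTROL_IT, 108 to 368 CPM, and the endothelial markers were at 61.0 to 124 CPM beside 31.6 to 55.9 CPM. The nuclear RNA Malat1, a check of RNA state, was at 278 to 690 CPM in NCTD_IT beside 76.2 to 96.3 CPM in CONTROL_IT. MIX_IT lay above the controls too, at 155 to 496 CPM. Mitochondrial reads were 2.47 to 6.32% of counts in NCTD_IT and 3.57 to 5.73% in MIX_IT, beside 2.42 to 2.68% in CONTROL_IT. The part of fibroblasts, endothelial cells or RNA state in the differences of the partners was not tested.

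In MIX_IT edgeR called 0 of the 56 partners beside 0 percent of all genes, and 7 had an unadjusted p below 0.05 (4 higher and 3 lower), beside 13 percent of all genes. The smallest adjusted p was 0.197, for Ppp1r8, a nuclear inhibitor of PP1, with a log2 fold change of 0.95 (SE 0.30). Without the filter on low counts Ppp1r8 was called there, 1 of 67 partners beside 1.35 percent of all genes.

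In the IP tumors edgeR called 0 of the 56 partners in each treated group, beside 0 percent of all genes. An unadjusted p below 0.05 was found for 4 partners in NCTD_IP beside 3.59 percent of all genes, for 3 in PTX_IP beside 5.3 percent and for 0 in MIX_IP beside 2.94 percent. The 4 in NCTD_IP were all regulatory subunits of PP2A and all higher. Strn3, which encodes a striatin, a regulatory subunit that joins PP2A to kinases, was at 166 and 135 CPM in CONTROL_IP, 204 and 213 in NCTD_IP, 204 and 205 in PTX_IP and 178 and 196 in MIX_IP. The log2 fold change of Strn3 was 0.47 in NCTD_IP (SE 0.18, edgeR adjusted p = 0.999) and 0.44 in PTX_IP (SE 0.18, adjusted p = 0.906). The other 3 in NCTD_IP were Strn4 at a log2 fold change of 0.40, Ppp2r3d at 0.53 and Ppp2r5d, with 6 to 37 reads per IP tumor, at 1.88, each with an edgeR adjusted p of 0.999. The other 2 in PTX_IP were Ppp2r3d at 0.63 and Ppp1r14b at 0.75, both with an adjusted p of 0.906.

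Between routes edgeR called 0 of 56 partners beside 0.739 percent of all genes, and 8 had an unadjusted p below 0.05 beside 14.4 percent. The smallest adjusted p was 0.0622 for Ppp1r12a, the targeting subunit of myosin phosphatase, which was lower in the IT tumors by a log2 difference of -0.49 (SE 0.12). It was called by edgeR without tumor 20 of NCTD_IT, without tumor 22 or without tumor 23 of MIX_IT. DESeq2 called 4 of the 51 partners to which it gave an adjusted p, beside 3.78 percent of all genes, with Ppp1r12a lower and Igbp1, Ppp1r15b and Ppp1r8 higher in the IT tumors. Without the filter on low counts edgeR called Ppp1r12a, Ppp1r15b and Ppp1r8, 3 of 67 beside 1.56 percent of all genes.

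**Figure D5:**
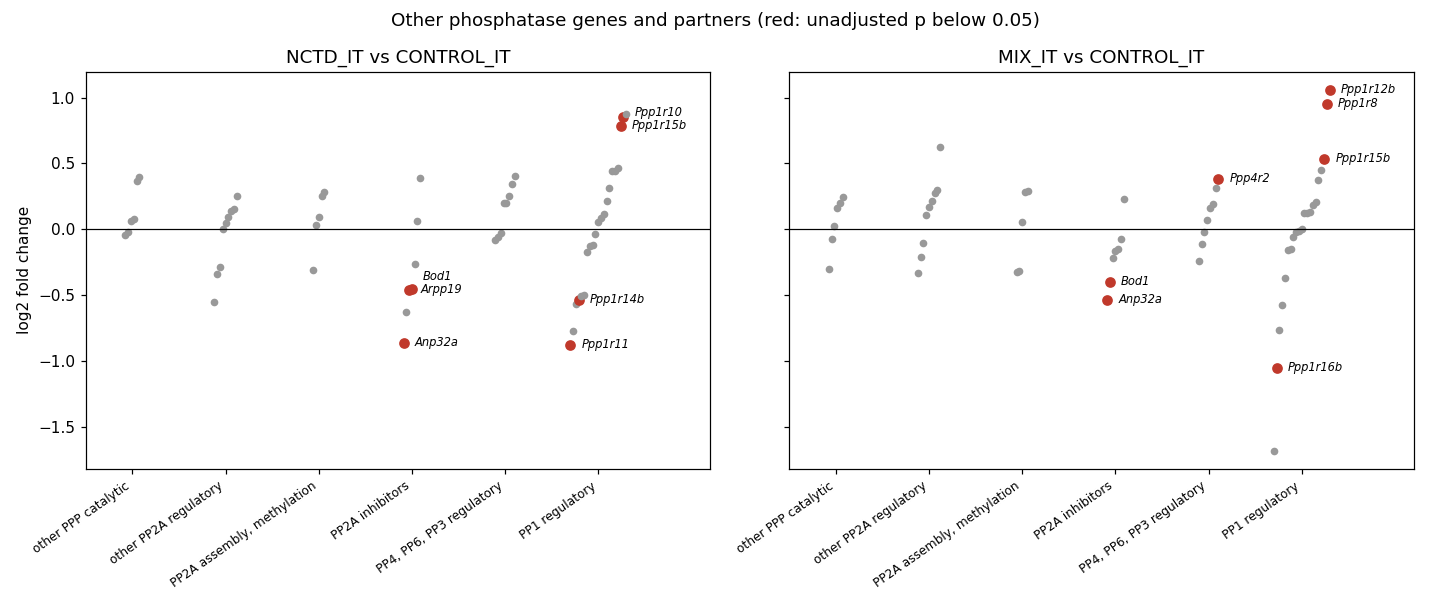
Log2 fold change in NCTD_IT (left) and MIX_IT (right) against CONTROL_IT of each of the 56 tested partner genes, grouped by role along the horizontal axis, with genes at an unadjusted p below 0.05 in red and named. In NCTD_IT 5 of the 7 red points lie below 0, among them Anp32a at -0.86 and Ppp1r11 at -0.88, and none of the 56 genes passed an adjusted p below 0.05 with edgeR.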

How the data were processed

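Gene expression was measured in 23 tumors in 8 groups, assigned by their labels, each tumor counted once. The authors used the Collibri kit for 3′ libraries of polyadenylated RNA, and the submitters' processing notes name FastQC, Trimmomatic, STAR 2.7.11b and the build GRCm39. The deposited values are counts of reads per gene without normalization, made by the authors. The strand setting, the handling of reads with several alignments and any use of molecular identifiers are not given in the sources used here. No column of per-tumor values was left unused (0). Tumors of a group differed by more than sampling noise (chi-square per degree of freedom 8.09 to 64.6).

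The tools were edgeR 4.0.16, DESeq2 1.42.0 and limma 3.58.1 in R 4.3.3. Genes were filtered with filterByExpr (minimum count 10, minimum total 15), libraries were scaled by TMM, and all tests were two-sided. Treated groups were compared within a route in a model of its 4 groups, and routes in a model of all 23 tumors. CPM values are on the TMM scale of the 23 tumors. Calls required a Benjamini-Hochberg adjusted p below 0.05 over all tested genes. Shares of reads between paralogs were compared by exact permutation tests. Correlations between members used log2 CPM without a prior count. The search for genes most like each catalytic gene used log2 CPM with a prior count of 2. The steps were tested on simulated data.

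Alternatives were DESeq2, DESeq2's size factors, no filter, only the 2 groups compared, all 23 tumors, the log2 level of Xist as a covariate, log2 ratios in place of shares, and leaving out each tumor in turn. The text names all 10 members and, from each list of other phosphatase genes, at most the 3 with the smallest unadjusted p in NCTD_IT or in the averaged effect of NCTD by either route. Ppp1r12a, Ppp1r14b and Ppp2r3d fall outside this rule and were named after their values were seen. The members and gene lists were chosen with earlier results of these data known. Gene positions are those of the deposited table on GRCm39, and exons, transcript ends and sequences are from the GENCODE annotation and genome of that build. Growth, staining and docking data were not analysed here.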

Additional observations from a re-analysis of the deposited data

Results flagged for a closer look

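In 3 of 39 sets of 4 tumors, 1 tumor lay farther from the others than Dixon's test allows at the 95 percent level, while chance alone gives such a value in about 5 percent of sets. Ppp1ca in tumor 24 of MIX_IT was at 18.8 CPM, with the other 3 tumors at 1.69 to 4.21 CPM. In the same tumor its share of the reads of Ppp1ca, Ppp1cb and Ppp1cc was 5.69%, beside 0.852 to 1.23% in the other 3. Ppp5c in tumor 19 of NCTD_IT was at 56.2 CPM, with the other 3 at 40.7 to 41.3 CPM. Tumor 24 of MIX_IT also had the lowest Ppp2cb of all 23 tumors, 6.15 CPM, and the highest Ppp2r1b, 100.4 CPM. No cause was tested.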

How the results depend on the processing

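No alternative called any member. Tumor numbers are those of the labels, and no direction below belongs to a difference that passed an adjusted p below 0.05. No paired analysis was possible because no replicate number is shared between groups. Of the log2 fold changes under alternatives that kept all tumors of the comparison, 412 kept their direction and 8 turned. With the log2 level of Xist in the model they were 0.207 for Ppp2ca, 0.893 for Ppp2cb and 0.151 for Ppp2r5c in NCTD_IT, 0.115 for Ppp2ca in PTX_IT, and -0.005 for Ppp2r5a and -0.004 for Ppp5c in MIX_IT. With only the 2 groups compared they were 0.009 for Ppp2cb in NCTD_IT and 0.006 for Ppp2ca in MIX_IT. As a log2 ratio, the difference in the Ppp1ca share was -0.85 in NCTD_IT and -0.0416 for NCTD averaged over PTX, and the cause was not tested.

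Leaving out each tumor in turn kept the direction in 502 cases and turned it in 78. In NCTD_IP the ranges were -1.481 to 1.64 for Ppp1ca, -0.258 to 0.115 for Ppp1cb, -0.113 to 0.083 for Ppp2ca, -0.127 to 0.196 for Ppp2r1b, -0.305 to 0.144 for Ppp2r5a and -0.204 to 0.058 for Ppp2r5c. In PTX_IP they were -0.258 to 2.865 for Ppp1ca, -0.132 to 0.047 for Ppp2ca, -0.244 to 0.018 for Ppp2r5a, -0.07 to 0.198 for Ppp2r5c and -0.303 to 0.763 for Ppp5c. In MIX_IP they were -0.922 to 2.2 for Ppp1ca, -0.263 to 0.011 for Ppp2ca, -0.1 to 0.224 for Ppp2r1b, -0.047 to 0.115 for Ppp2r2a, -0.219 to 0.361 for Ppp2r5a and -0.107 to 0.154 for Ppp2r5c. For NCTD averaged over PTX in the IP tumors they were -1.073 to 0.488 for Ppp1ca, -0.074 to 0.115 for Ppp1cb, -0.121 to 0.016 for Ppp2ca, -0.258 to 0.011 for Ppp2cb, -0.045 to 0.106 for Ppp2r2a, -0.089 to 0.202 for Ppp2r5a, -0.124 to 0.012 for Ppp2r5c and -0.179 to 0.354 for Ppp5c. In the IT tumors they were -0.267 to 0.171 for Ppp2cb in NCTD_IT, and -0.141 to 0.374 for Ppp2cb, -0.202 to 0.19 for Ppp2r1a and -0.063 to 0.061 for Ppp2r5c in PTX_IT. In MIX_IT they were -0.831 to 0.727 for Ppp1ca, -0.053 to 0.031 for Ppp2ca, -0.162 to 0.042 for Ppp2r1a, -0.068 to 0.13 for Ppp2r5a, -0.078 to 0.055 for Ppp2r5c and -0.081 to 0.151 for Ppp5c. For NCTD averaged over PTX they were -0.505 to 0.697 for Ppp1ca, -0.008 to 0.045 for Ppp2ca, -0.177 to 0.008 for Ppp2r1a, -0.073 to 0.102 for Ppp2r5a and -0.106 to 0.032 for Ppp5c. Ppp2r2a stayed between 0.315 and 0.48 in MIX_IT and between 0.248 and 0.35 for NCTD averaged over PTX.

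The share of Ppp2ca ranged from -1.01 to 0.697 percentage points in NCTD_IT and from 0.501 to 1.5 for NCTD averaged over PTX. The share of Ppp2r1a ranged from -6.97 to -4.13 in MIX_IT and from -4.28 to -1.94 for the averaged effect. The share of Ppp1ca ranged from -0.439 to 0.53 in NCTD_IT, -1.04 to 0.108 in PTX_IT, -0.531 to 1.08 in MIX_IT and -0.0902 to 0.848 for the averaged effect, where leaving out tumor 24 of MIX_IT turned it. With the reads of Ppp1ccb added to Ppp1cc, an alternative chosen after seeing the data, the averaged effect was 0.404.

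Counts of all genes called did depend on the fit. In NCTD_IT against CONTROL_IT edgeR called 171, DESeq2 1380, no filter 1190, only the 2 groups compared 946, all 23 tumors 777 and the model with Xist 0, and in MIX_IT edgeR called 0, DESeq2 230, no filter 364 and the model with Xist 76. Of the 56 partner genes in NCTD_IT, DESeq2 called 5, all 23 tumors in the model 5 and the model with Xist 0, and without tumor 20 of NCTD_IT edgeR called Anp32a. Without the filter 3 of 67 were called and with only the 2 groups compared 3 of 51. Sparse reads and a wide spread between tumors limit Ppp1ca, with 2 to 113 reads per tumor, and 2 tumors per IP group limit every comparison there.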

Other observations

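Among the 45 pairs of members, Ppp1ca and Ppp5c ran together across the 23 tumors, a pair chosen after its values were seen. Pearson's r of their log2 levels was 0.591 (permutation p = 0.00288, adjusted p = 0.0508 over the 45 pairs) and Spearman's rho was 0.585 (adjusted p = 0.188), so neither passed the adjustment. Without the 2 tumors farthest from the median of Ppp1ca, r was 0.519. Within the 8 IP tumors it was 0.453 and within the 15 IT tumors 0.669.

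Ppp2cb and Ppp1ca ran against each other, with r at -0.597 (permutation p = 0.00339, adjusted p = 0.0508) and rho at -0.52 (adjusted p = 0.275), and without the 2 farthest tumors r was -0.48. Within the 15 IT tumors r was -0.71 and within the 8 IP tumors it was 0.042, and whether r differed between the routes was not tested.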
